A study of Homo sapiens with 6 samples.

Results

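The genes described here are ERN1, which encodes the endoplasmic reticulum (ER) stress sensor IRE1-alpha, and 5 genes of ER protein folding and entry, namely CALR, HYOU1, SEC11C, CRELD2 and SDF2L1. They were chosen by name, and all 6 were measured, out of 14884 named genes. They had 7 of the 53617 probe sets of the array, since HYOU1 had a second probe set and the brighter was used. Expression was measured in SH-SY5Y, an established human neuroblastoma line, on Affymetrix Human Gene 2.0 ST arrays. The mock group received the solvent methanol, the securinine group 30 µM securinine and the 16F16 group 4 µM 16F16. Treatment lasted 24 h, and every group has 2 arrays. The labels present securinine, a plant alkaloid, and 16F16, a synthetic compound, as inhibitors of protein disulfide isomerase (PDI), which forms and rearranges disulfide bonds in the ER. The doses differed, only this line was studied, and the replicates are named biological without a statement of separate cultures, so p-values measure the spread between these samples, which may be technical.

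Proteins of the secretory pathway enter the ER through a channel, lose their signal peptide, and fold with the help of chaperones and disulfide-forming enzymes. When unfolded proteins build up, the sensors IRE1-alpha, PERK (gene EIF2AK3) and ATF6 start the unfolded protein response. IRE1-alpha splices the mRNA of the transcription factor XBP1, PERK slows translation and favours ATF4, and ATF6 is cut to release a transcription factor. ATF6, with the CCAAT-binding factor NF-Y, and spliced XBP1 act on ER stress response elements in the promoters of many chaperone genes.

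The promoters of 4 of the 6 genes held such an element, as the RefSeq promoter table of build GRCh38.p14 shows. Windows of 300 bases, from 250 before to 50 after each annotated gene start, were searched on both strands for the element ERSE (CCAAT, then any 9 bases, then CCACG), the element ERSE-II (ATTGG, any 1 base, CCACG) and the XBP1-type element UPRE (TGACGTGG). ERSE was found in 0.0769% of all 35116 promoter windows, ERSE-II in 0.0541% and UPRE in 0.729%. The short parts CCAAT, found in 34.6%, and CCACG, found in 38.1%, were searched too, and they overlap the longer elements. The stretches below lie before the gene start, run 5′ to 3′ on the gene's strand and are shown because they separate the members with a full element from ERN1 and SEC11C. Capitals mark the fixed letters of ERSE, ERSE-II or UPRE.
CALR: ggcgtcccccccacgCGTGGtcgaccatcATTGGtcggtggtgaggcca
HYOU1: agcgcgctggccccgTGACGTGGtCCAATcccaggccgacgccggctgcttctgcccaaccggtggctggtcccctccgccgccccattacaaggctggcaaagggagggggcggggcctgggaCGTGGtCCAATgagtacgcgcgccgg
CRELD2: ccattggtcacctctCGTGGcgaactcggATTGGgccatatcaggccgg
SDF2L1: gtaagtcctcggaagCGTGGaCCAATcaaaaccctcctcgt

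The CALR stretch is chr19:12938369-12938417 on the plus strand, and its ERSE lay 225 to 207 bases before the start, in reverse orientation. The HYOU1 stretch is chr11:119057259-119057408 on the minus strand. It held 2 copies of ERSE-II in reverse orientation, 185 to 175 and 79 to 69 bases before the start. A UPRE in forward orientation, at 188 to 181, overlaps the first of them. The CRELD2 stretch is chr22:49918539-49918587 on the plus strand, with a reversed ERSE 80 to 62 bases before the start. The SDF2L1 stretch is chr22:21642099-21642139 on the plus strand, with a reversed ERSE-II 188 to 178 bases before the start. ERN1 had a single CCAAT box and SEC11C a single CCACG, both reversed and marked below in capitals. They lie in the stretches chr17:64130218-64130252 on the minus strand and chr18:59139829-59139863 on the plus strand.
ERN1: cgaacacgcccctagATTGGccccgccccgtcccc
SEC11C: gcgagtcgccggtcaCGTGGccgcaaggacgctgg
A match is a description of the letters in these windows, and binding was not measured.

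**Figure D1:**
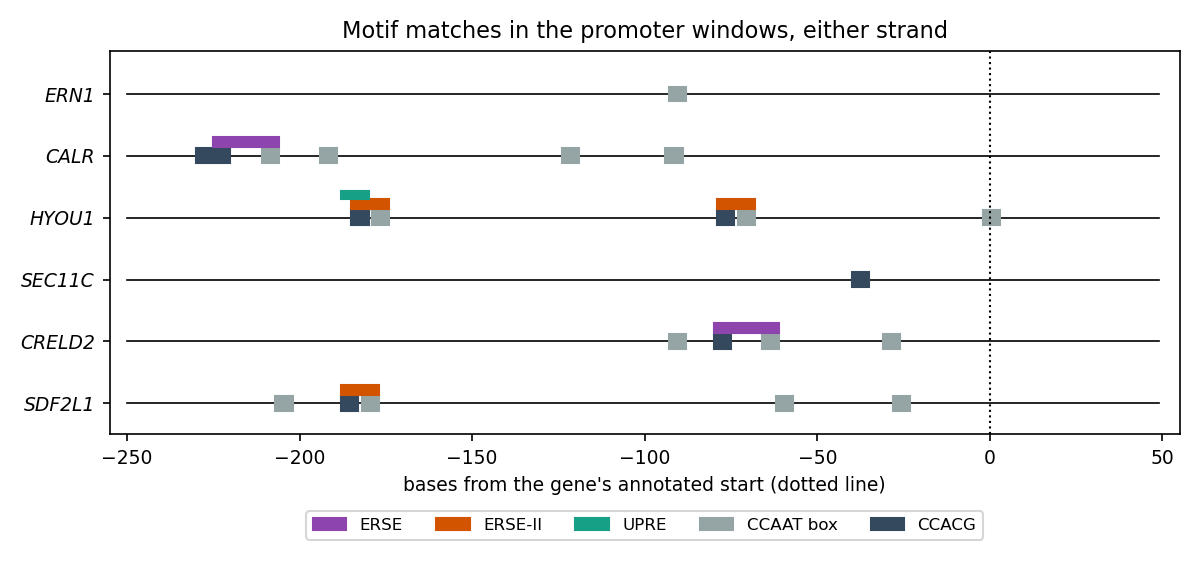
Positions of motif matches (coloured boxes) in the promoter window of each gene, in bases from the annotated gene start, both strands together. CALR and CRELD2 each held 1 ERSE, HYOU1 held 2 copies of ERSE-II and 1 UPRE, SDF2L1 held 1 ERSE-II, and ERN1 and SEC11C held none of these 3 elements.

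The arrays were alike in their overall values. Medians of single arrays over all probe sets ran from 4.16 to 4.23 in log2 units. The 6 genes lay above them on every array, which is no detection call. Over named genes alone the medians were 5.67 and 5.69 in mock, 5.58 and 5.61 with securinine, and 5.67 and 5.68 with 16F16. CRELD2 lay below these on the mock arrays, at 5.54 and 5.61. Median centring, used below, was on these medians of named genes. Arrays correlated over all probe sets at 0.986 to 0.990 within groups and at 0.979 to 0.986 between groups. Of 15 measured noradrenergic neuroblastoma genes, 14 were above the median of named genes on every array. The summed log2 value of these genes was 143.7 to 143.8 in mock, 134.9 to 136.0 with securinine and 138.4 to 138.6 with 16F16. Of 7 measured epithelial, blood and endothelial markers, 1 was above that median, and their sum was 29.5 to 30.6, 30.0 to 30.1 and 29.3 to 31.1. Of the 15, 8 fell and 2 rose with securinine and 4 fell with 16F16, and of the 7, 1 rose with securinine. The part of the lower neuroblastoma sum in the results below was not tested, and in bulk samples fewer cells of a type and less RNA per cell cannot be told apart.

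With securinine, 4 of the 6 genes rose, by 0.50 to 0.58 in log2 units, and with 16F16 none passed the test. In limma, fitted over all genes, ERN1, CALR, HYOU1 and SEC11C were higher with securinine than in mock, with adjusted p from 0.0079 to 0.014, and 0 were called lower. At an unadjusted p under 0.05 there were 5 members, beside 33.6% of all genes. Of all 14884 genes, 8.40% were called higher and 10.6% lower in that comparison, which is 1251 and 1572 genes. Once each array was centred on its median they were 1773 and 1165, and after quantile normalization 1098 and 1818. With 16F16, 0 of 6 were called with limma, 4 had an unadjusted p under 0.05 (21.1% of all genes), and adjusted p lay between 0.052 and 0.36, beside 1.50% of all genes called, 0.719% higher and 0.779% lower. Over all genes these 223 calls with 16F16 became 0 without any 1 of the 6 arrays, with 2099 to 2904 genes at an unadjusted p under 0.05 in limma. Both treated arrays lay above both mock arrays for 5 of 6 genes with securinine, where 27.0% of all genes did so, and for 6 of 6 with 16F16, where 24.1% did so. The securinine calls rested on all 4 arrays compared: 0 of 6 genes passed without mock replicate 1, without mock replicate 2 or without securinine replicate 2, and CALR alone passed without securinine replicate 1. Calls over all genes fell in the same fits from 2823 to 658, 629, 974 and 701, in that order, while the member differences ranged from 0.50 to 0.65 for ERN1, 0.55 to 0.60 for CALR, 0.44 to 0.57 for HYOU1 and 0.45 to 0.55 for SEC11C.

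**Figure D2:**
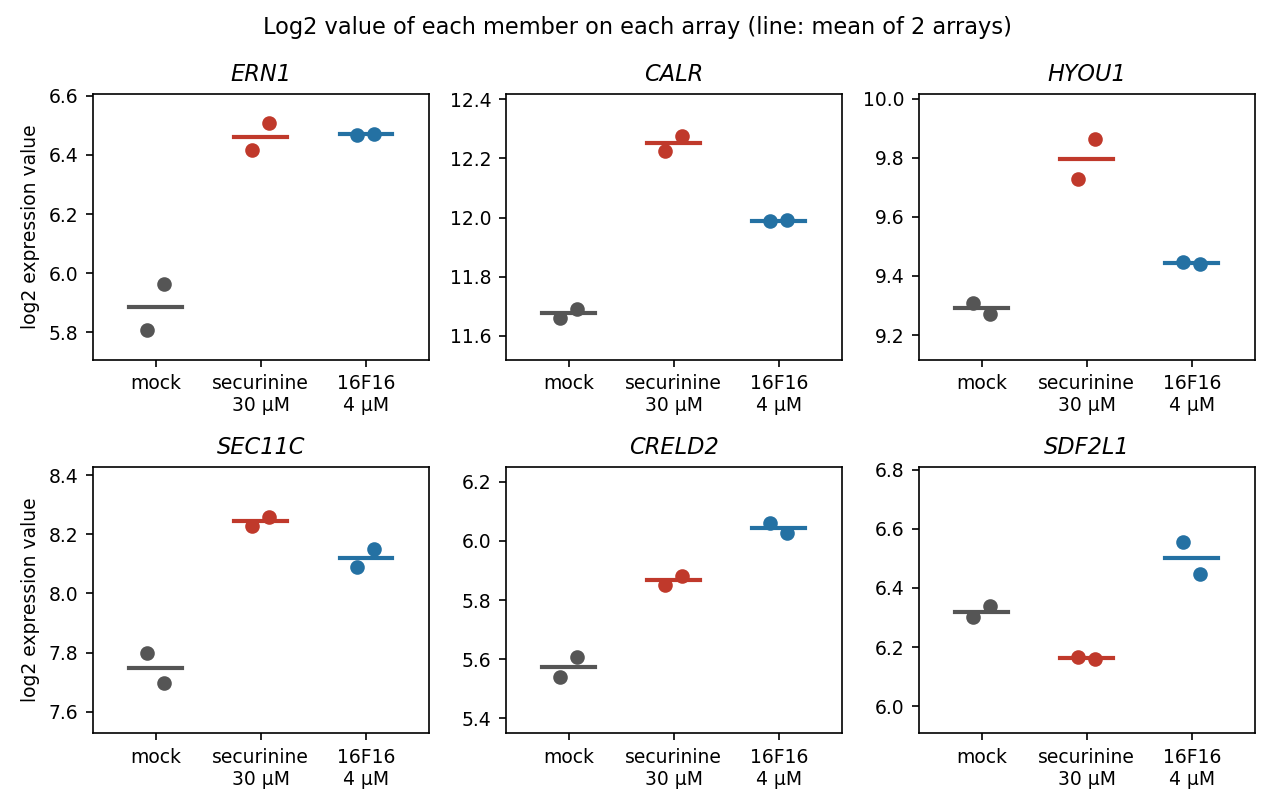
Log2 expression value (vertical axis, a span of the same size in every panel) of each gene on each array, by treatment. Points are single arrays and lines are group means of 2 arrays. The treated arrays of ERN1, CALR, HYOU1, SEC11C and CRELD2 lie above the mock arrays, and the securinine arrays of SDF2L1 lie below them.

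ERN1 had log2 values of 5.81 and 5.96 in mock, 6.42 and 6.51 with securinine, and 6.47 and 6.47 with 16F16. Both treatments stood clear of mock and overlapped each other. With securinine ERN1 rose by 0.58 ± 0.090 in log2 units (SE here and below, 2 arrays in each group). This is 1.49-fold (95% interval 1.28 to 1.74), with a limma adjusted p of 0.012. The 16F16 difference was 0.58 ± 0.090, with a limma adjusted p of 0.052, just outside the threshold. It passed once each array was centred on its median (adjusted p = 0.045), with genes restricted to those above the median of all probe sets (0.016), and when the prior variance could follow intensity (0.0040). It did not pass in the other 12 of 15 alternatives, where adjusted p reached 0.18 with every probe set tested and 0.12 to 0.22 without single arrays. The difference between the treatments was 0.0077 ± 0.090, and its 95% interval ran from -0.22 to 0.23. ERN2, the related sensor kinase of epithelial tissues, was at 0.05 ± 0.10 with securinine and 0.09 ± 0.10 with 16F16.

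The sensor genes ATF6 and EIF2AK3 did not pass against mock, and nor did XBP1. XBP1, the mRNA that IRE1-alpha splices, was at 0.17 ± 0.078 with securinine and -0.01 ± 0.078 with 16F16, and its promoter window held an ERSE. The gene-level value does not tell spliced from unspliced XBP1. ATF6 was at -0.03 ± 0.077 and -0.01 ± 0.077. EIF2AK3, which encodes PERK, was at 0.23 ± 0.083 and 0.33 ± 0.083.

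CALR encodes calreticulin, a calcium-binding lectin chaperone that holds newly made glycoproteins. Its log2 values were 11.66 and 11.69 in mock, 12.22 and 12.28 with securinine, and 11.99 and 11.99 with 16F16. The groups did not overlap, with mock lowest, 16F16 between and securinine highest. CALR rose by 0.57 ± 0.075 with securinine (limma adjusted p = 0.0079), 1.49-fold. With 16F16 it was at 0.31 ± 0.075 (limma adjusted p = 0.10), and 16F16 minus securinine was -0.26 ± 0.075 (limma adjusted p = 0.088).

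HYOU1 encodes a large HSP70-related chaperone that also acts as a nucleotide exchange factor for the chaperone BiP. Its values were 9.31 and 9.27 in mock, 9.73 and 9.86 with securinine, and 9.45 and 9.44 with 16F16. The securinine arrays stood above all others, and the 16F16 arrays lay just above mock. HYOU1 rose by 0.50 ± 0.084 with securinine (limma adjusted p = 0.014), 1.42-fold. With 16F16 it was at 0.16 ± 0.084 (95% interval -0.05 to 0.36), and 16F16 minus securinine was -0.35 ± 0.084 (limma adjusted p = 0.059). The second HYOU1 probe set was dimmer, with a mock mean of 4.93 ± 0.087 (SD, n = 2), and was at 0.21 ± 0.10 with securinine and 0.11 ± 0.10 with 16F16, neither past the threshold. The 2 probe sets therefore had the same sign, and the call came from the brighter one.

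SEC11C encodes a catalytic subunit of the signal peptidase complex, which removes signal peptides from proteins entering the ER. It had values of 7.80 and 7.70 in mock, 8.23 and 8.26 with securinine, and 8.09 and 8.15 with 16F16. Both treatments lay above mock, and the securinine arrays lay above the 16F16 arrays. SEC11C rose by 0.50 ± 0.082 with securinine (limma adjusted p = 0.014), 1.41-fold, and with 16F16 it was at 0.37 ± 0.082 (limma adjusted p = 0.085). The other catalytic subunit, SEC11A, was at 0.07 ± 0.091 with securinine and 0.06 ± 0.091 with 16F16. Among the accessory subunits, SPCS1 was at -0.02 ± 0.078, SPCS2 at 0.40 ± 0.14 and SPCS3 at 0.34 ± 0.095 with securinine, none of them past the threshold. Whether SEC11C and SEC11A differ in their response was not tested.

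CRELD2 encodes a secreted ER-stress-inducible protein with PDI-like activity. Its values were 5.54 and 5.61 in mock, 5.85 and 5.88 with securinine, and 6.06 and 6.03 with 16F16. With 16F16 it was at 0.47 ± 0.077 (limma adjusted p = 0.056), and with securinine at 0.29 ± 0.077 (limma adjusted p = 0.051). The groups did not overlap, with mock lowest and 16F16 highest, and both differences from mock missed the threshold narrowly. The securinine difference passed once each array was centred on its median (adjusted p = 0.025) and after dim genes were left out (0.020), and the 16F16 difference passed after that filter (0.018) and with the intensity-dependent prior (0.018). Each passed in 2 of 15 alternatives, and adjusted p over all of them reached 0.21 for securinine and 0.23 for 16F16. The difference of 16F16 minus securinine was 0.18 ± 0.077 (limma adjusted p = 0.21). CRELD1, its paralog, was at 0.03 ± 0.086 with securinine and 0.09 ± 0.086 with 16F16.

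SDF2L1 encodes an ER-resident partner of the co-chaperones DNAJB11 and DNAJC3. Its values were 6.30 and 6.34 in mock, 6.17 and 6.16 with securinine, and 6.56 and 6.45 with 16F16. The securinine arrays lay below mock and the 16F16 arrays above it, so SDF2L1 was the only one of the 6 with the treatments on opposite sides of mock. Neither difference passed in limma: securinine was at -0.16 ± 0.081 (adjusted p = 0.25) and 16F16 at 0.18 ± 0.081 (adjusted p = 0.28). The difference of 16F16 minus securinine, 0.34 ± 0.081, had a limma adjusted p of 0.058. Its paralog SDF2 rose with securinine by 0.55 ± 0.090 (limma adjusted p = 0.013) and was at 0.30 ± 0.090 with 16F16.

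**Figure D3:**
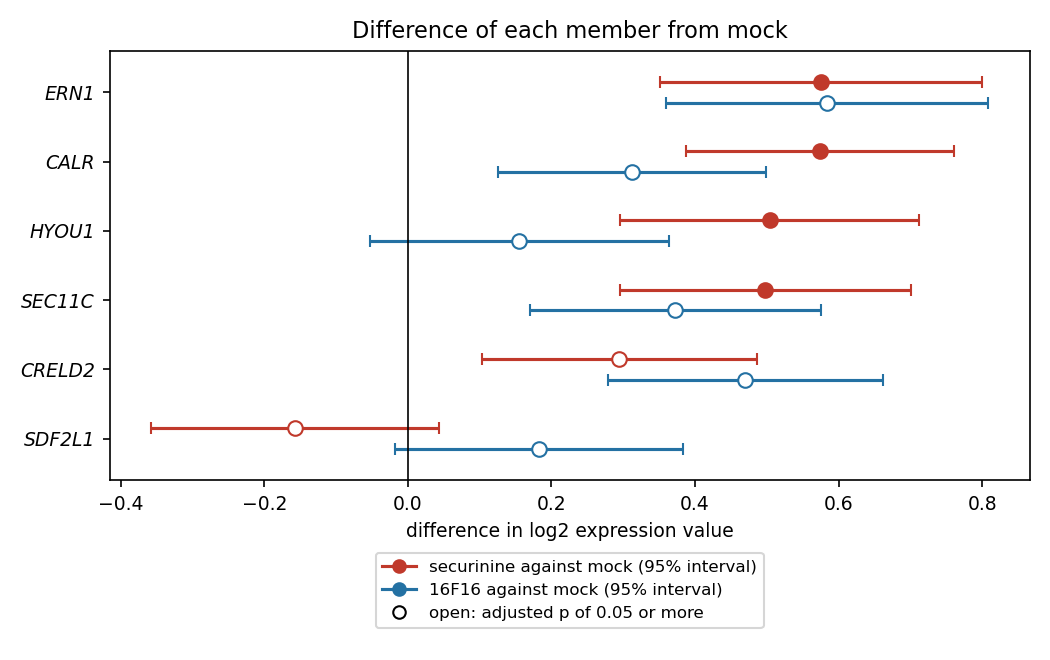
Difference of each treatment from mock in log2 expression value (horizontal axis) with its 95% interval from limma, for each gene. Filled points had an adjusted p under 0.05: ERN1, CALR, HYOU1 and SEC11C with securinine. The 2 intervals of ERN1 nearly coincide, and those of SDF2L1 lie to either side of 0 and both include it.

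Between the treatments, which were given at different doses, 0 of 6 genes passed in limma, 3 had an unadjusted p under 0.05 (27.7% of all genes) and adjusted p lay between 0.058 and 0.97. Of all genes, 9.51% were called, 5.55% higher with 16F16 than with securinine and 3.96% lower. Scaling turned this split, from 826 higher and 590 lower genes to 616 and 1040 after median centring, and 0 genes were called without securinine replicate 1, securinine replicate 2 or 16F16 replicate 1 (324, 324 and 261 without mock replicate 1, mock replicate 2 or 16F16 replicate 2). Quantile normalization moved the split the other way, to 1009 higher and 489 lower genes. CALR, HYOU1 and SEC11C had lower means with 16F16, and CRELD2 and SDF2L1 higher ones. Both comparisons with mock share the mock arrays.

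Around these members, the genes of ER protein entry, folding and disposal were described by 9 lists of 190 genes, of which 113 were measured. With securinine, 21 of the 113 rose (18.6%) and 9 fell, beside 8.40% and 10.6% of all genes, and their median difference was 0.07, beside -0.04 over all genes. Without the 6 members, 17 of 107 rose and 9 fell. Limma's adjusted p of the called genes lay between 0.0023 and 0.042. Over the 10566 genes with a mean above the median of all probe sets, 1733 were called higher and 2050 lower with securinine. Of the list genes in that fit, 30 were higher and 9 lower. The part of brightness in the list shares was not tested. After median centring, 29 of the list genes were higher and 7 lower, and after quantile normalization 19 and 9. Without mock replicate 1, mock replicate 2, securinine replicate 1 or securinine replicate 2, the called genes numbered 9, 6, 8 and 7. With 16F16, 2 rose and 1 fell, and the median was 0.04, beside -0.01 over all genes. With 16F16 these 3 calls were lost without any 1 of the 6 arrays. For 16F16 minus securinine, 3 of the 113 were higher and 5 lower, against 2 and 13 after median centring and 8 and 4 after quantile normalization. With 1 array left out, the called genes numbered 0 to 3.

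**Figure D4:**
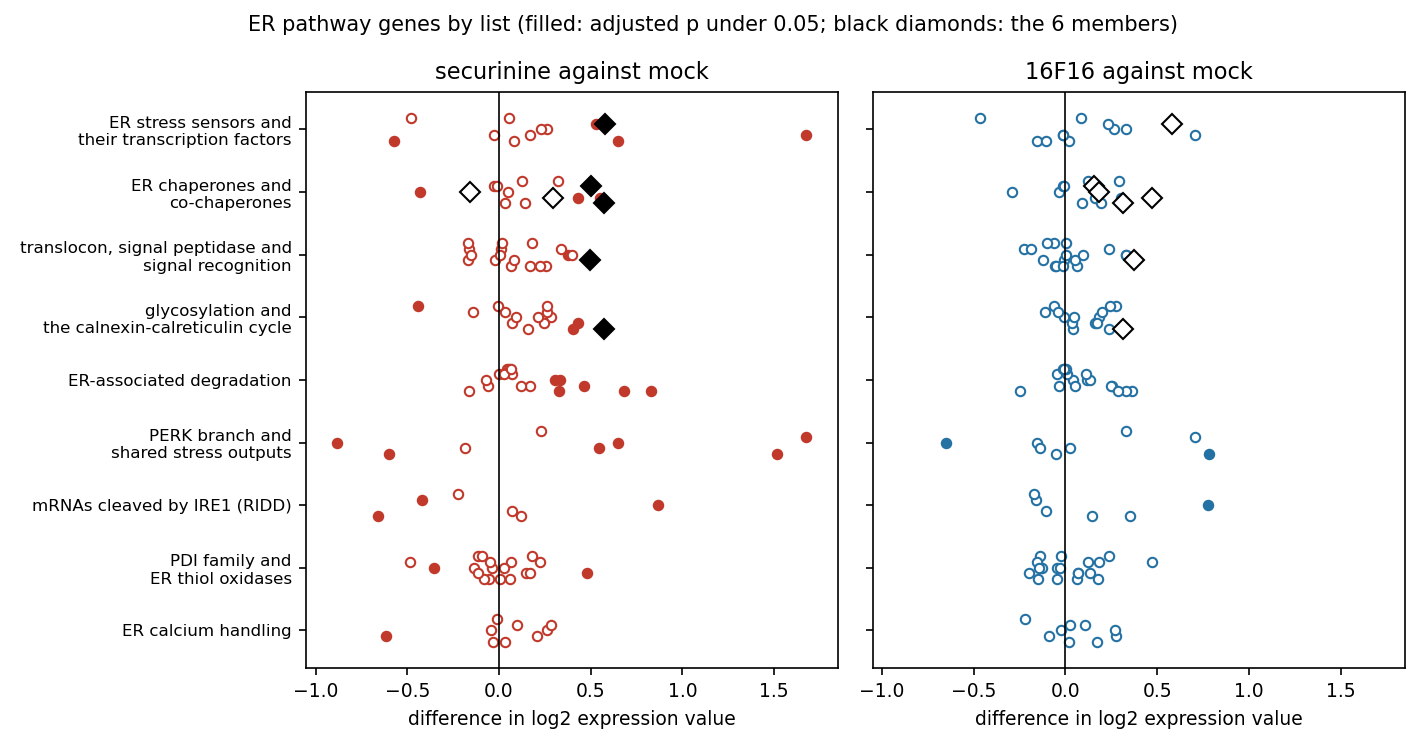
Difference from mock in log2 expression value (horizontal axis) of each measured gene of the 9 ER lists (rows), with securinine on the left and 16F16 on the right. Filled symbols had an adjusted p under 0.05, and black diamonds are the 6 genes described here: 21 filled symbols stand for rises and 9 for falls with securinine when each gene is counted once, against 2 and 1 with 16F16.

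Among the chaperones and co-chaperones, 4 of 14 measured genes rose and 1 fell with securinine. Besides CALR, HYOU1 and SDF2, the membrane lectin chaperone CANX rose by 0.43 ± 0.085, and the prolyl isomerase FKBP7 fell by 0.43 ± 0.083. MANF, a secreted ER stress protein, was at 0.32 ± 0.099 without passing. With 16F16, 0 of the 14 passed in limma, and at an unadjusted p under 0.05 there were 5 higher and 1 lower. Over all 14884 genes, 1455 were higher and 1684 lower with 16F16 at that unadjusted p. The lists below are to be set beside these counts too. HSPA5, HSP90B1, DNAJB9 and HERPUD1 had no probe set named in the table used, and are not analysed here.

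Of 18 translocon, signal peptidase and signal recognition genes, SEC11C and SEC61A1, the channel's main subunit (0.38 ± 0.077), rose with securinine and 0 fell. In the glycosylation and calnexin-calreticulin cycle list, 3 of 15 rose and 1 fell. They were CALR, CANX and RPN1, a subunit of the oligosaccharyltransferase (0.40 ± 0.077), while DPAGT1, which starts the lipid-linked sugar chain, fell by 0.44 ± 0.083. In both lists 0 genes passed with 16F16 in limma. At an unadjusted p under 0.05 there were 3 higher and 1 lower in the first list and 5 higher in the second.

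Of 17 genes of ER-associated degradation, which moves misfolded proteins to the proteasome, 6 rose with securinine and 0 fell. VCP, the ATPase that pulls proteins out of the membrane, rose by 0.46 ± 0.081, and its cofactors NPLOC4 and UFD1 by 0.83 ± 0.081 and 0.68 ± 0.098. The membrane components FAF2 (0.33 ± 0.075), AUP1 (0.33 ± 0.073) and DERL2 (0.31 ± 0.075) made up the rest. SEL1L, the scaffold of the ubiquitin ligase, was at -0.07 ± 0.079. NPLOC4 and VCP were lower with 16F16 than with securinine, by 0.50 ± 0.081 and 0.41 ± 0.081 (limma adjusted p = 0.025 and 0.036). With 16F16, 0 of the 17 passed in limma, with 5 higher and 1 lower at an unadjusted p under 0.05.

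Of the 12 sensors and transcription factors, 4 rose and 1 fell with securinine. Besides ERN1, the stress transcription factors DDIT3 and ATF4 rose by 1.67 ± 0.11 and 0.65 ± 0.077, and CREB3, a membrane-bound factor, by 0.53 ± 0.075. CREB3L2, a related factor, fell by 0.57 ± 0.11. DDIT3 and ATF4 were lower with 16F16 than with securinine by 0.97 ± 0.11 and 0.81 ± 0.077 (limma adjusted p = 0.014 and 0.0098). Against mock with 16F16, DDIT3 was at 0.71 ± 0.11 (limma adjusted p = 0.053), ATF4 at -0.16 ± 0.077 and ERN1 at 0.58 ± 0.090. In the PERK list of 8 genes, which shares DDIT3 and ATF4, 4 rose and 2 fell with securinine: SESN2 rose by 1.52 ± 0.11 and ATF3 by 0.54 ± 0.13, and the asparagine synthetase ASNS fell by 0.60 ± 0.098 and the receptor VLDLR by 0.88 ± 0.079. With 16F16, SESN2 rose by 0.78 ± 0.11 and VLDLR fell by 0.65 ± 0.079. ASNS was higher with 16F16 than with securinine by 0.55 ± 0.098, and SESN2 was lower by 0.74 ± 0.11.

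Of 6 measured mRNAs that IRE1-alpha is known to cut in other settings, HGSNAT rose by 0.86 ± 0.082, and TAPBP and PER1 fell by 0.66 ± 0.077 and 0.42 ± 0.099 with securinine. With 16F16 HGSNAT rose by 0.78 ± 0.082 and 0 fell. TAPBP, a chaperone of antigen presentation, was higher with 16F16 than with securinine by 1.02 ± 0.077 (limma adjusted p = 0.0088). P4HB and the PDIA genes, which encode PDI itself and its closest relatives, had no probe set named in the table used and are not analysed here. In the list of other PDI relatives and thiol oxidases of the ER, ERP44 (0.48 ± 0.092) rose and TMX1 fell by 0.36 ± 0.076 with securinine among 19 measured, and 0 passed with 16F16 in limma, with 1 at an unadjusted p under 0.05. Of 9 genes listed for ER calcium handling, the store-operated channel ORAI1 fell by 0.62 ± 0.12 with securinine. RefSeq classes ORAI1 as a transcribed pseudogene.

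Neither the members nor other genes with an ERSE or ERSE-II shared 1 direction. With securinine, CALR and HYOU1, which hold an element, were called higher, and CRELD2 and SDF2L1, which also hold one, were not called. ERN1 and SEC11C, which hold none, were called higher. The 26 measured genes with an ERSE or ERSE-II include the 4 members that hold one. Of these 26, 5 were called higher and 2 lower with securinine, and 0 were called with 16F16. Among the 10749 measured genes with a promoter window, 9.25% were called higher with securinine (994 genes) and 1243 lower, and 75 were called higher and 90 lower with 16F16. The 5 were the members CALR and HYOU1, and also CANX, the axon growth gene NAV2 (0.76 ± 0.096) and the actin-associated SYNPO (0.44 ± 0.077). The 2 that fell were RUVBL2, by 0.70 ± 0.087, and TRIM5, by 0.43 ± 0.086. SERP1, which protects proteins during ER entry, was at -0.29 ± 0.079 with securinine and -0.40 ± 0.079 with 16F16, neither past the threshold. The median securinine difference of the 26 genes was 0.11, beside -0.04 over those with a window. It was 0.14 over the 11 genes with an ERSE and -0.08 over the 15 with an ERSE-II. Of 118 measured genes with a UPRE, 16 were called higher (13.6%) and 16 lower with securinine. With 16F16, 3 of these 118 were called higher and 0 lower.

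Likeness of pattern over the 6 arrays was measured as the Euclidean distance between values centred on each gene's mean, over 11915 protein-coding genes. Nearest to ERN1 was CLIP1, a microtubule plus-end protein, at a distance of 0.0886, followed by AHNAK at 0.127 and PGAP6 at 0.132. CALR lay nearest to TNRC6C (0.0594), DST (0.0821) and NEO1 (0.0883), and HYOU1 to CHD8 (0.0664), BIRC6 (0.0676) and GATD1 (0.0708). SEC11C lay nearest to ACACA (0.0725), VPS13B (0.0804) and DDHD1 (0.0918). CRELD2 lay nearest to the transcription factor SP1 (0.0524), SNN (0.0759) and SCPEP1 (0.0988), and SDF2L1 to the cohesin subunit SMC1A (0.0594), IL20 (0.0612) and RCCD1 (0.0746). For each of the 6, no other member was among the nearest 3. Between members, CALR lay closest to SEC11C (0.172) and HYOU1 (0.174), and SDF2L1 lay farthest from HYOU1 (0.790) and CALR (0.785).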

How the data were processed

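The authors deposited log2 expression values of 53617 probe sets on 6 arrays. Per the submitters' processing notes, which give no versions, RMA and limma were used; RMA normalizes between arrays and so takes out shifts common to most genes. The array's genome build and annotation release were not given in the sources used here. Probe sets were named through the platform annotation table: 16098 had 1 gene symbol, 0 several and 37519 none. All 16098 matched a RefSeq gene table (GRCh38.p14) by Entrez identifier. The brightest probe set was kept for 779 genes with several, giving 14884 genes. limma (version 3.58.1, R 4.3.3; lmFit, eBayes) was fitted over the 6 arrays on treatment group alone (3 residual and 2.68 prior degrees of freedom). P-values are two-sided and adjusted by Benjamini-Hochberg over all genes, and a call is an adjusted p under 0.05. The fit was also run on simulated data, with changes larger than those of the members. That run does not show how well changes of the members' size are found. The number of arrays limits the precision (median SE of a difference 0.109).

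The members, lists and motifs were chosen with earlier results of these data known. Genes named are the 6 members, list genes called in any comparison, 14 fixed ER genes where measured (10), paralogs of members (ERN2, CRELD1), genes with an ERSE or ERSE-II that were called (with SERP1, picked after its values were seen), and the 3 protein-coding genes nearest to each member. The alternatives were median centring, quantile normalization, a filter on dim genes, all probe sets, the mean of a gene's probe sets, 2 other variance priors, fits of 4 arrays, a replicate block and leaving out each array.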

Additional observations from a re-analysis of the deposited data

Results flagged for a closer look

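SDF2L1 was flagged because both securinine arrays lay below both mock arrays while both 16F16 arrays lay above them. How many of all genes have this order was not counted. Of all genes, 24.1% had both 16F16 arrays above both mock arrays, and 29.3% had them above both securinine arrays. Neither SDF2L1 difference from mock passed in limma (adjusted p = 0.25 with securinine and 0.28 with 16F16). The difference of 16F16 minus securinine was 0.34 ± 0.081 (log2 units, SE, 2 arrays in each group) and missed the threshold in limma (adjusted p = 0.058).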

How the results depend on the processing

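The 4 calls of ERN1, CALR, HYOU1 and SEC11C with securinine became 1 (CALR) when every probe set was tested. They became 5 after median centring and 5 with the filter on dim genes. Over all genes, the 2823 securinine calls became 1013 with every probe set, 2938 with centring and 3783 of 10566 with the filter. ER list genes called with securinine, 30 in all, became 10 with every probe set and lay between 6 and 26 without single arrays. With 16F16, members called went from 0 to 1 after median centring, to 4 after the filter on dim genes and to 4 with an intensity trend in the prior, and stayed 0 without any single array. Over all genes, the 223 called with 16F16 became 214 with centring, 1056 of 10566 with the filter, 1808 with the trend, and 0 with every probe set, with 4 arrays, with the replicate block and without any single array. The 3 ER list genes called with 16F16 became 5, 13 and 26 under the same settings, and 0 with every probe set, with 4 arrays, with the replicate block and without any single array. For 16F16 minus securinine, members called went from 0 to 2 with centring, 1 with quantile normalization, 3 with the filter and 3 with the trend. The 8 ER list genes became 15 with centring, 26 with the filter and 38 with the trend. They became 0 with every probe set, 3 with 4 arrays and 3 with the replicate block. Over all genes, these 1416 calls became 1656 with centring, 1498 with quantile normalization, 2522 of 10566 with the filter and 3107 with the trend. They became 0 with every probe set, 324 with 4 arrays and 503 with the replicate block. The small ERN1 difference of 16F16 minus securinine turned to -0.068 with centring, and ran from -0.037 to 0.053 without single arrays. No member's difference from mock changed sign in any of these alternatives. The labels do not say whether replicate numbers mark a shared culture or day. Deviations of replicate 1 from the group means correlated between groups at -0.03, 0.04 and -0.05, which cannot settle this. With the number as a replicate block 4, 0 and 0 members were called. The cause was not tested.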
